A study of Rattus norvegicus with 2 samples.

Results

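Muc2, Fcgbp, Agr2, Tff3, Retnlb, Klk1, Spink1, Best2, Clca1 and Zg16, genes for the mucus gel and the cargo and channels of the goblet cells that make it, were followed through droplet single-cell RNA-seq of fetal rat colon. The 10 genes were chosen as a named list and are 10 of the 28116 gene symbols counted. The data were 1 library labelled control (replicate 1) and 1 labelled maternal obesity (replicate 2), both from wild-type (WT) colon at E19.5, shortly before birth. The libraries are named CON1 and HFD2, and the labels do not describe the diet, the strain, the stretch of colon or the number and sex of the fetuses in a library. With 1 library per group there are no biological replicates, so no difference below carries a test, and every interval covers counting error only. A difference between the libraries cannot be told apart from a difference between fetuses, dissections or dissociations.

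Intestinal mucus is a gel spun from Muc2, a very large gel-forming mucin that is glycosylated, packed into goblet cell granules and released to hydrate and expand. Fcgbp is a secreted protein bound into the gel, Clca1 is a metalloprotease that processes it, and Zg16 is a lectin that binds bacterial cell walls in it. Agr2 is a disulphide isomerase of the endoplasmic reticulum needed to make Muc2, and Tff3 is a trefoil peptide secreted with the mucin. Retnlb is an antibacterial resistin-like peptide of goblet cells, Klk1 is tissue kallikrein, a serine protease, and Spink1 is a secreted trypsin inhibitor. Best2 is a bestrophin anion channel that has been linked to bicarbonate transport in colonic goblet cells.

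Because several of these genes moved together over cells, the 250 bases before their start sites in RefSeq (rat assembly GRCr8) were read, and 9 of the 10 genes matched an entry, all but Zg16. The E-box CANCTG, the kind of site that Atoh1, the factor that sets the secretory fate, binds, was present in 7 of the 9, against 43.3% of 33469 promoter windows of that length. TGTTTNC, a core of forkhead sites, was present in 2 against 18.3%, TTTATNN, a core of Cdx sites, in 5 against 39.1%, and the TATA box TATAAA in 2 against 12.9%. Both strands were searched, and every TATAAA match here lies inside a TTTATNN match on the other strand, so these are not separate counts. A few windows are shown, for the gel-forming mucin, for Agr2 and Tff3, which were highly correlated over cells, and for Best2, which differed most between libraries. Capitals mark the matches, and Best2 has none. A match is a string of letters and not evidence of binding.
Muc2, chr1:206228785-206229034, plus strand: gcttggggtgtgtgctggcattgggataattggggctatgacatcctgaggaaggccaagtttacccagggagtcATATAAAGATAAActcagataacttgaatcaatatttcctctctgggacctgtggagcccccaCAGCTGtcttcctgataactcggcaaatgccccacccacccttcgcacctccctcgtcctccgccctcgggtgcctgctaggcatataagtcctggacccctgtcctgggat
Agr2, chr6:58435658-58435907, plus strand: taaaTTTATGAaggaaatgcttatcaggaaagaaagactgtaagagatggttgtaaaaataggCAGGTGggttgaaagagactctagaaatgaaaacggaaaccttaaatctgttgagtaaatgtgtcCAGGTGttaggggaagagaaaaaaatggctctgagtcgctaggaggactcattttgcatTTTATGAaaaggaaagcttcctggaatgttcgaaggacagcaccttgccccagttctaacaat
Tff3, chr20:9199334-9199583, minus strand: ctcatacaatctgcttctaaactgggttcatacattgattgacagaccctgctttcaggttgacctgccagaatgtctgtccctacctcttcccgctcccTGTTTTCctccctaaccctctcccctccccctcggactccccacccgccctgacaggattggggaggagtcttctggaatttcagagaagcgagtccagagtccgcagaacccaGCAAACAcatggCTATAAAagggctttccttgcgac
Best2, chr19:40046941-40047190, plus strand: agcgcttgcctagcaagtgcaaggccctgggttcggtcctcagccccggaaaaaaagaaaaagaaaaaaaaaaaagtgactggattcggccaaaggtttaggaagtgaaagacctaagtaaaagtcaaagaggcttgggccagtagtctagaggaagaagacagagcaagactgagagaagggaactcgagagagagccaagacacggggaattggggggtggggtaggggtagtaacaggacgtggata

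The libraries held 103013814 UMIs in 8903 barcodes (control) and 120811946 UMIs in 9714 barcodes (maternal obesity), where a unique molecular identifier (UMI) marks 1 captured transcript. The filter (500 or more genes, mitochondrial UMIs not above 20%) passed 6879 and 7236 barcodes. After removal of called doublets 6819 and 7102 cells were left, and 80 barcodes occurred in both libraries. Epithelial-like cells numbered 2768 (40.6%) in control and 1359 (19.1%) in maternal obesity, with median UMIs of 15938.5 and 23834. Their identity was checked against marker genes: Epcam stood at 2721 and 2628 UMIs per 1000000 (CPM) in these cells against 92.0 and 70.3 in fibroblast-like cells, while collagen Col1a1 stood at 2.31 and 3.04 and the leukocyte gene Ptprc at 0.0746 and 0.0753. The files list Muc2 as AABR07006030.1 (ENSRNOG00000046602), matched through a RefSeq synonym. Klk1 has 3 identifiers, and all its UMIs fell on ENSRNOG00000032857. Kallikrein genes are near-identical copies, so the Klk1 counts may include reads of relatives.

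Over all epithelial-like cells, 8 of the 10 genes were at least 1.5-fold lower in the maternal obesity library than in the control library, 1 was at least that much higher (Zg16) and 1 lay between (Fcgbp). Of all 13408 genes with at least 20 UMIs, 11.6% were as much lower and 11.7% as much higher. The median log2 ratio was -1.30 over the 10 genes and 0.05 over all genes. That count depends on which epithelial cells each library held, as shown further on: with sub-clusters weighted equally 3 genes were lower, and with the sub-cluster make-up of control 0 were. Levels in CPM are compared between cells and libraries but not between genes.

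Among the gel components, Muc2 was at 159 CPM (819 cells with a UMI) in control and 62.2 CPM (237 cells) in maternal obesity, 2.56-fold lower (95% interval 2.45 to 2.68). The Muc2-bound protein gene Fcgbp differed less, at 156 and 117 CPM (1.34-fold lower, 1.29 to 1.39). Clca1, the mucus-processing protease, was at 56.5 and 21.6 CPM (2.61-fold lower, 2.42 to 2.82). Zg16 was near the limit of detection and went the other way, with 91 UMIs in 42 cells of control and 169 UMIs in 53 cells of maternal obesity, or 1.70 and 4.24 CPM (2.50-fold higher, 1.93 to 3.26). A single control cell held 19.8% of the Zg16 UMIs.

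Agr2 and Tff3, the folding helper and the trefoil peptide, gave most of the UMIs of the 10 genes. Agr2 was at 3335 CPM in the control library and 1706 CPM in the other (1.96-fold lower, 1.94 to 1.97), and Tff3 at 2416 and 1292 CPM (1.87-fold lower, 1.85 to 1.89). Together they made up 82.9% of these UMIs in control and 86.2% in maternal obesity. Retnlb was at 205 and 87.2 CPM (2.35-fold lower, 2.27 to 2.45), and a single maternal obesity cell with 725 UMIs held 20.9% of the Retnlb UMIs of its library. Without the top cell of each gene the counts of genes past 1.5-fold stayed at 8 lower and 1 higher.

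The protease, its class of inhibitor and the channel showed the widest gaps. Klk1 had 4447 and 862 UMIs, or 82.9 and 21.6 CPM (3.83-fold lower, 3.56 to 4.12). Spink1 was at 455 and 155 CPM (2.93-fold lower, 2.85 to 3.02). Best2 had 3941 UMIs in 763 control cells and 509 UMIs in 93 maternal obesity cells, or 73.5 and 12.8 CPM (5.75-fold lower, 5.24 to 6.32).

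**Figure D1:**
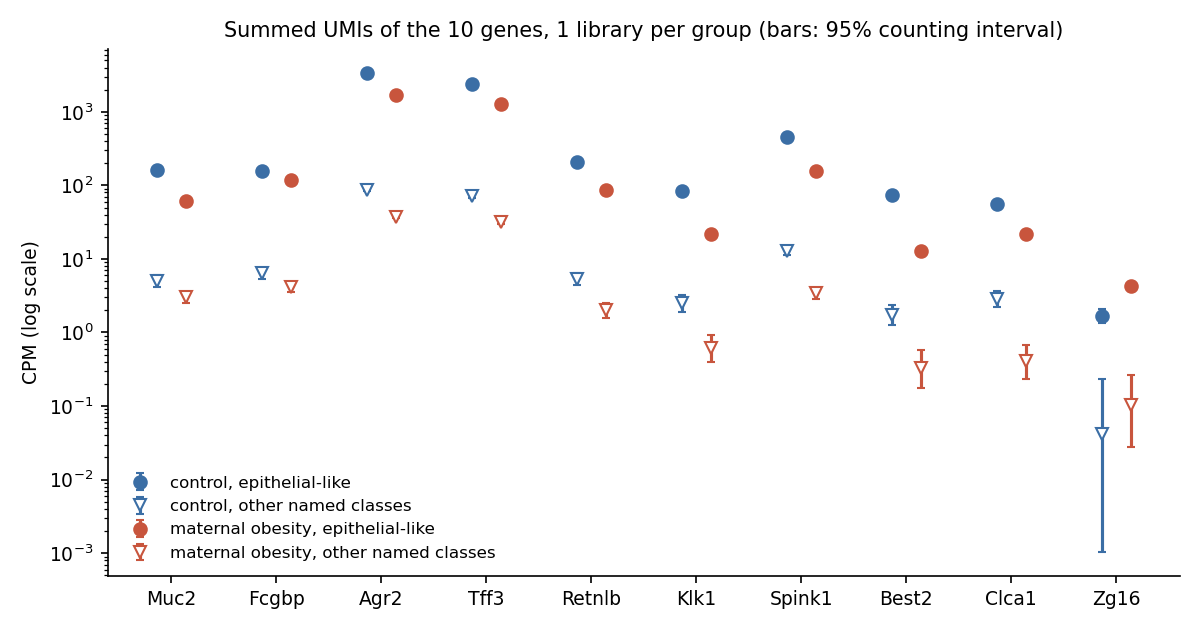
UMIs per 1000000 on a log axis for each gene in epithelial-like cells (filled circles) and in all other named cell classes together (open triangles) of the control and maternal obesity libraries, with 95% counting intervals. In epithelial-like cells 9 of the 10 genes are lower in maternal obesity and Zg16 is higher, and the other classes lie far below in both libraries.

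Within the epithelium the genes were concentrated in a few of the 18 sub-clusters, which were made with the 10 genes left out. The cells with the highest levels were the goblet-like sub-cluster E14, led by Lrrc26, Sval1, Mptx1 and Itln1, and the unnamed sub-cluster E6, led by Ghrl, Tnfrsf11b and Cracr2b and sharing Sval1, Mptx1 and Itln1 with it. In control, Muc2 was at 845 CPM in E14 and 921 CPM in E6, against 1.15 CPM in E9, the sub-cluster led by Shh and Tdh. Agr2 was at 14374 CPM in E14 and 13388.5 CPM in E6, against 182 CPM in E9. In the maternal obesity library E14 and E6 again held high levels: Muc2 was at 1086 and 1213 CPM and Agr2 at 21067 and 20084 CPM. E14 or E6 was the highest sub-cluster for all 10 genes in that library and for 9 in control, where Zg16 was highest in E7 (8.89 CPM).

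A defensin-led sub-cluster, E7 (Defa8, Defa9, Defa6, Reg4), carried a different mix. Tff3 in E7 stood at 4421 and 6821 CPM in the control and maternal obesity libraries, and Fcgbp at 291 and 574 CPM. Best2, by contrast, was at 7.33 and 1.21 CPM in E7 against 504 and 338 CPM in E14, and Klk1 at 23.8 and 30.003 CPM against 431 and 410 CPM. The Olfm4-led progenitor-like sub-cluster E0 was low in Clca1 (6.07 and 1.72 CPM) but held Best2 at 55.2 and 64.3 CPM. Enteroendocrine-like cells (E16, led by Gcg and Chgb) held Klk1 at 85.1 and 50.4 CPM (67 and 21 UMIs) and Tff3 at 1644 and 3079 CPM, with Muc2 at 16.5 and 2.40 CPM. Lowest were the sub-clusters led by Shh and Tdh (E9), by Afp (E8), by the globin genes Hbe1 and Hbz with Otc (E4) and by Cps1 and Ccl25 (E5).

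**Figure D2:**
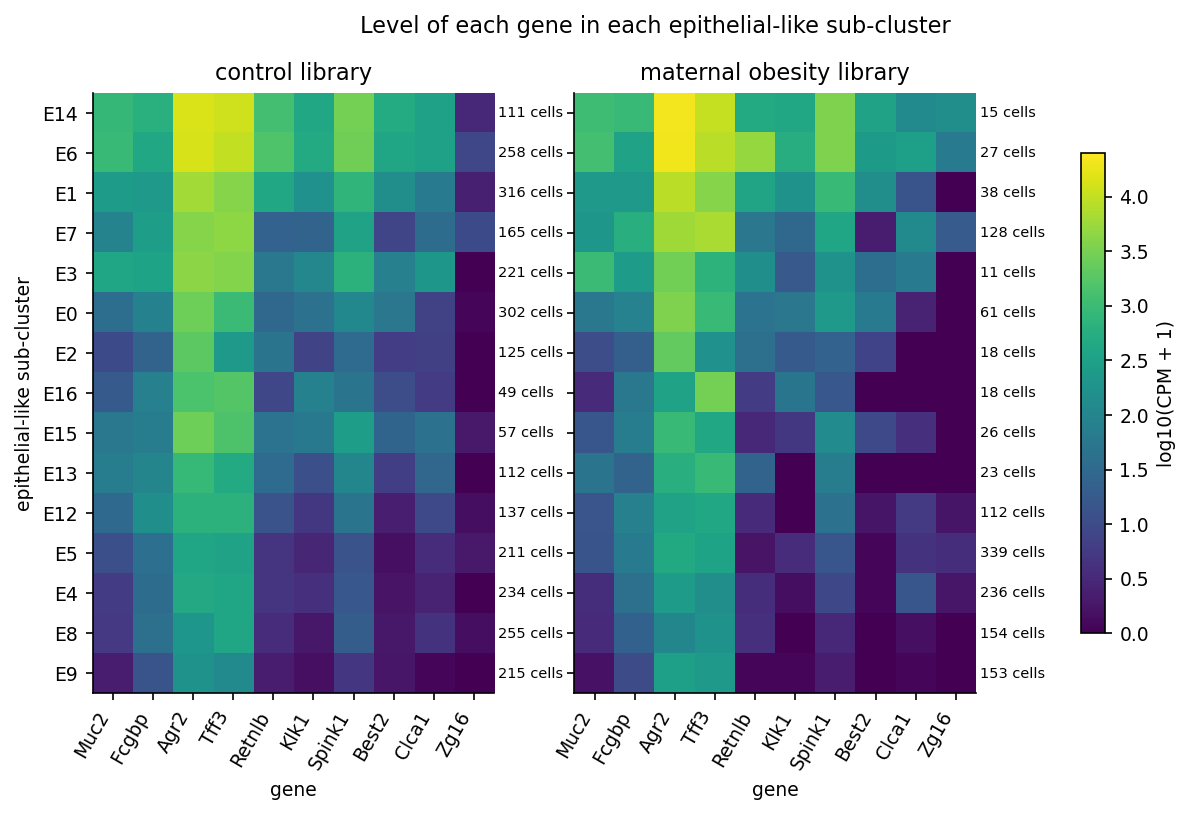
Level of each gene (columns) in 15 epithelial-like sub-clusters (rows), as log10 of CPM plus 1, for the control library on the left and the maternal obesity library on the right, with cells per sub-cluster beside each row. E14 and E6 are brightest for nearly every gene in both libraries, E7 is dark for Best2, and E14 has 111 cells in control and 15 in maternal obesity.

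The sub-clusters that gave the most control UMIs of these genes made up different shares of the epithelial-like cells. E1 (led by Duox2, Cd177 and Sftpa1), E6 and E14 together held 685 cells (24.7%) in control and 80 cells (5.89%) in maternal obesity, whereas E7 held 165 and 128. In control, E1, E6 and E14 gave 65.5% of the UMIs of the 10 genes and E7 gave 11.1%. In maternal obesity the same 3 sub-clusters gave 32.8% and E7 gave 42.1%. The split differed by gene: in the maternal obesity library E1, E6 and E14 still gave 88.7% of Retnlb and 72.7% of Best2 UMIs, but only 13.5% of Fcgbp and 21.7% of Clca1 UMIs. How far dissection or dissociation set these shares was not tested.

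Giving each of the 8 sub-clusters with at least 30 cells in both libraries the same weight left 3 genes at least 1.5-fold lower and 0 higher (4.24% and 11.2% of all genes). These were Retnlb (log2 ratio -0.68), Klk1 (-1.24) and Best2 (-1.54). Muc2 (-0.21), Agr2 (-0.05) and Fcgbp (-0.04) came close to 0. E14 and E6 have under 30 maternal obesity cells and do not enter this mean, and Klk1 had at least 20 UMIs in 4 of the 8, with a lower level in 0 of those 4. Best2 had that many in 3, with ratios of 1.16 in E0, 0.99 in E1 and 0.165 in E7 (33 and 5 UMIs). The Klk1 and Best2 means thus lean on sub-clusters with few UMIs. Retnlb had that many in 7 and was lower in 4 of them. Its largest gaps there were in E5 (log2 -2.37; 22 and 9 UMIs) and E12 (-2.34; 27 and 6 UMIs). It was higher in E0 (0.74), E7 (1.23) and E8 (0.16). Giving the maternal obesity library the sub-cluster make-up of control left 0 genes lower and 2 higher (5.11% and 10.8% of all genes), namely Retnlb (log2 0.96) and Zg16 (2.49). There Muc2 was at 0.48 and Best2 at -0.36. This weighting was chosen after seeing the data and leans on 11 maternal obesity cells in E3, 15 in E14 and 27 in E6. In E3, 1 of the 11 cells held 165 of the 182 Muc2 UMIs. Without the top cell of each library the Muc2 log2 ratio in E3 went from 1.27 to -1.99. In E6, 1 of the 27 cells held 725 of the 2512 Retnlb UMIs.

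**Figure D3:**
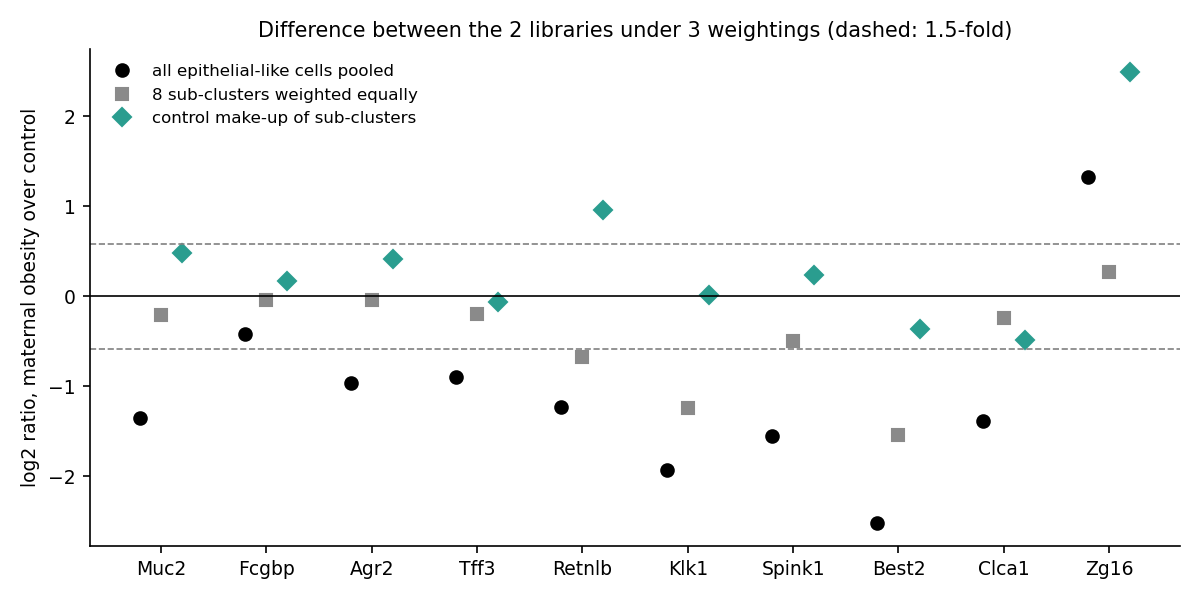
Log2 ratio of maternal obesity over control for each gene with all epithelial-like cells pooled (circles), with 8 sub-clusters weighted equally (squares) and with the control make-up of sub-clusters (diamonds); dashed lines mark 1.5-fold. Pooled values of 8 genes lie below the lower line, and with the control make-up none does.

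Inside the defensin-led sub-cluster, which alone among the 4 sub-clusters named above had over 100 cells in each library, 6 of the 10 genes were at least 1.5-fold higher in maternal obesity and 1 was lower, where 14.7% of the 10174 genes tested there were as much higher and 4.52% as much lower. Clca1 was at 34.4 CPM (155 UMIs, 42 of 165 cells) in control and 129 CPM (532 UMIs, 48 of 128 cells) in maternal obesity, 3.74-fold (3.12 to 4.50). Muc2 differed 2.32-fold (2.06 to 2.62), with UMIs in 81 and 79 cells. Retnlb differed 2.36-fold (1.86 to 3.00), Fcgbp 1.97-fold (1.84 to 2.11), Zg16 1.96-fold (1.31 to 2.96) and Tff3 1.54-fold (1.51 to 1.57). Agr2 lay just under the line at 1.497-fold (1.47 to 1.53). Best2 was the exception, with 33 UMIs in 13 control cells and 5 in 5 maternal obesity cells. Leaving out the top cell of each gene kept the log2 ratios of the 6 genes between 0.64 and 1.83.

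In the other sub-clusters the pattern was uneven. Of the genes with at least 20 UMIs there, fewer than 10 in each sub-cluster, 6 were at least 1.5-fold lower and 0 higher in E12. In E8 the counts were 5 and 0, in E4 4 and 1, and in E5 and E9 1 and 2 each. They were 1 and 3 in E0 and 1 and 0 in E1. The higher gene in E4 was Clca1 (7 and 65 UMIs), with 64 UMIs in 1 maternal obesity cell. Its log2 ratio went from 2.98 to -1.37 without the top cell of each library. Muc2, 1 of the 3 in E0, went from 0.60 to -0.07. Of all genes, 10.5% were as much lower and 10.9% as much higher in E12, and 5.92% and 11.3% in E8. These shares were 4.12% and 18.8% in E4, 4.98% and 12.5% in E5, and 4.59% and 13.3% in E9. In E0 they were 7.6% and 7.23%, and in E1 8.89% and 10.1%. Muc2, 1 of the lower genes in E8 (4.48 and 2.44 CPM) and E4 (4.81 and 2.82 CPM), lay near its level in smooth muscle-like cluster C12 (4.38 and 2.58 CPM). How much free RNA gave of the low levels in E8 and E4 was not tested. Klk1, 3.83-fold lower over all epithelial-like cells, had ratios of 1.11 in E1 (0.96 to 1.27), 1.12 in E6 (0.98 to 1.27), 0.95 in E14 (0.72 to 1.24), 1.24 in E0 (0.98 to 1.57) and 1.26 in E7 (0.97 to 1.65), and each of these 5 intervals held 1. It was lower in E3 (0.15, 0.03 to 0.45; 336 and 3 UMIs), E15 (0.07, 0.02 to 0.18; 58 and 4 UMIs) and E16 (0.59, 0.34 to 0.98; 67 and 21 UMIs). Best2 was at a ratio of 0.99 in E1 (0.85 to 1.15), 0.62 in E6 (0.51 to 0.75) and 0.67 in E14 (0.49 to 0.89). Retnlb went both ways, 3.25-fold higher in E6 (3.09 to 3.41; 19 of 27 maternal obesity cells) and at a ratio of 0.40 in E14 (0.31 to 0.50; 6 of 15 cells). In E6, 1 maternal obesity cell held 725 of the 2512 Retnlb UMIs. With the top cell of each library left out, the Retnlb log2 ratio in E6 went from 1.70 to 1.33. Clca1 was lower in E1, with 549 UMIs in control and 17 in maternal obesity (ratio 0.19, 0.11 to 0.31). It was also lower in E3 (0.30, 0.16 to 0.53), with all 12 maternal obesity UMIs in 1 cell, and in E14 (0.38, 0.23 to 0.60). In E6, the sub-cluster with the most control UMIs of Clca1, the ratio was 0.95 (0.79 to 1.12; 1047 and 151 UMIs). There 1 maternal obesity cell held 58 UMIs of Clca1. Leaving out the top cell of each library moved the log2 ratio from -0.07 to -0.66. Zg16 in E14 had 3 UMIs in 1 control cell and 22 in 2 maternal obesity cells, a ratio of 65.9 with an interval of 19.8 to 344.

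Over single cells the genes differed in how widely they were spread. The top 10% of epithelial-like cells held 42.3% of Agr2 UMIs in control and 65.5% in maternal obesity, but 96.7% and 100.0% of Retnlb UMIs. In maternal obesity only 113 cells (8.31%) had a Retnlb UMI, so the value of 100.0% was fixed by how few cells had one. Depth differs between libraries, so cells were thinned to 3000 UMIs, and 290 and 87 cells with fewer were dropped. After thinning, Agr2 was seen in 75.7% of epithelial-like cells of control (74.0 to 77.4) and 49.1% of maternal obesity (46.3 to 51.8), and unthinned in 91.2% and 77.1%. In fibroblast-like cells, which should not express it, the thinned shares were 24.1% and 12.3% and the unthinned ones 48.5% and 30.7%, at median depths of 6899 and 7461.5 UMIs. Muc2 was seen in 19.8% and 8.96% of thinned epithelial-like cells against 3.01% and 1.24% of fibroblast-like cells. Best2 was seen in 16.3% and 3.22% against 1.13% and 0.50%, and Zg16 in 0.44% and 0.86% against 0 of 266 and 0 of 808 cells, which allows up to 1.13% and 0.371%. In control the Zg16 share lay under this fibroblast-like limit, but above the limit of 0.377% from 0 of 795 smooth muscle-like cells. How much of it free RNA gave was not tested.

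Counted per cell at 3000 UMIs, 42.6% of control epithelial-like cells (40.6 to 44.5) had UMIs of at least 3 of the 10 genes, against 20.1% (18.0 to 22.4) in maternal obesity, where 0.752% and 0.495% of fibroblast-like cells (2 of 266 and 4 of 808) and 2.01% and 0% of smooth muscle-like cells (16 of 795 and 0 of 599) did. Of the cells with any of the genes, 604 of 2016 in control and 358 of 714 in maternal obesity had exactly 1. At least 6 genes were seen in 15.3% and 4.25%, and all 10 in 0 cells. Among control cells with a Muc2 UMI, 83.7% also had Spink1 and 50.6% Klk1, against 21.9% and 10.2% of cells without one. Among maternal obesity cells with a Muc2 UMI, 70.2% had Spink1 and 26.3% Klk1, against 8.3% and 2.3%. Thinned cells with Zg16, 11 in each library, all had Agr2 and Tff3, and 0 of them had Best2.

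As a description over cells of 1 library, which share its depth range, Pearson correlations of log-scaled levels were above 0.7 in both libraries for 4 pairs: Agr2 with Tff3 (0.77 in control, 0.78 in maternal obesity), Tff3 with Spink1 (0.78 and 0.72), Agr2 with Spink1 (0.73 and 0.75) and Klk1 with Best2 (0.71 and 0.76). Fcgbp went with Tff3 (0.67 and 0.73) more than with Best2 (0.42 and 0.21). In control the highest value of Zg16 with another member was 0.1101, with Agr2. In maternal obesity Zg16 reached 0.31 with Spink1 and 0.28 with Fcgbp and Tff3.

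**Figure D4:**
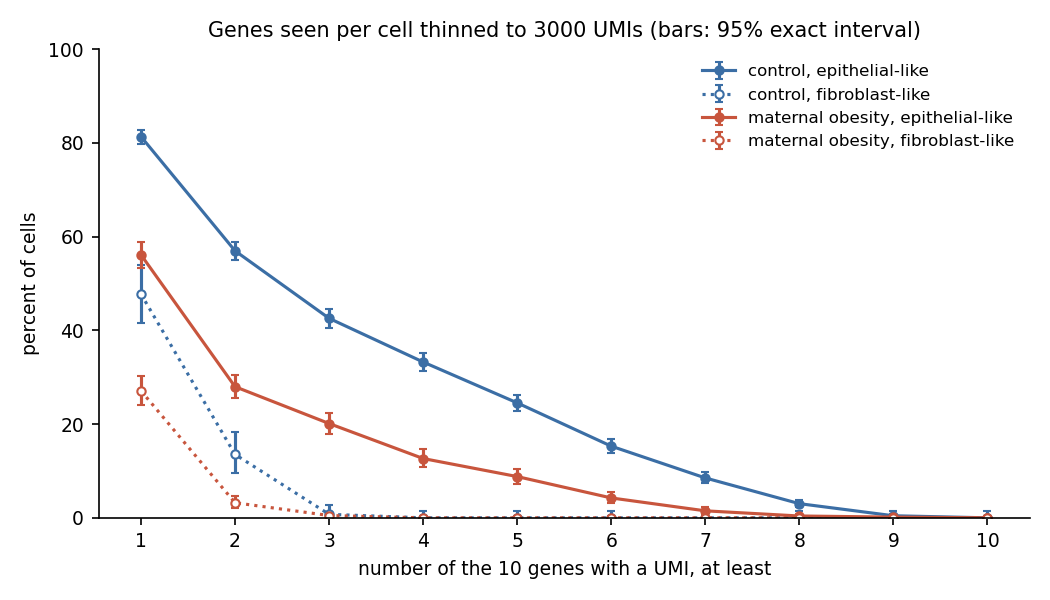
Percent of cells (vertical axis) with a UMI of at least the given number of the 10 genes (horizontal axis) after thinning to 3000 UMIs, for epithelial-like (solid) and fibroblast-like cells (dotted) of both libraries, with 95% exact intervals. At 3 genes the epithelial-like cells stand at 42.6% in control and 20.1% in maternal obesity, and the fibroblast-like cells under 1%.

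UMIs of these genes also occurred in cells of every other named class. By class the sum of the 10 genes stood at 2.33% to 5.31% of the epithelial-like level in control and at 1.48% to 2.95% in maternal obesity, apart from mesothelial-like cells there. These classes together stood at 195 CPM for the 10 genes in control and 83.0 CPM in maternal obesity, or 2.81% and 2.39% of the epithelial-like level. Their mix resembled the epithelial one: Agr2 made 44.9% and 45.1% of these UMIs against 48.0% and 49.0% in epithelial-like cells, and Tff3 36.3% and 37.9% against 34.8% and 37.1%. Muc2 made 2.59% and 3.62% against 2.30% and 1.79%, and Fcgbp 3.27% and 5.08% against 2.25% and 3.35%, so both took a larger part outside the epithelium. Subtracting the fibroblast-like level from the epithelial-like one left 8 genes lower and 1 higher.

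Mesothelial-like cells departed from this for Klk1. Klk1 had 10 UMIs in 9 of 69 cells in control and 12 UMIs in 9 of 46 cells in maternal obesity, or 12.96 CPM (6.22 to 23.8) and 20.03 CPM (10.3 to 35.0). These are 15.6% and 92.5% of the epithelial-like level of the library, where the non-epithelial classes together stood at 3.04% and 2.85% and the next highest class, lymphoid-like cells, at 6.62% and 10.0%. No mesothelial-like cell had more than 2 Klk1 UMIs, and Muc2 in them had 4 and 5 UMIs (3.25% and 13.4% of the epithelial-like level). In the maternal obesity library the Tff3 and Agr2 levels of mesothelial-like cells rested on 1 cell, which held 180 of 189 Tff3 UMIs and 164 of 181 Agr2 UMIs. The sum of the 10 genes there was 678 CPM with the top cell of each gene and 90.0 CPM without it.

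Several of the genes were also high in barcodes with few UMIs that did not count as epithelial-like. Cluster C11 (230 control and 67 maternal obesity barcodes, medians of 1557.5 and 1201 UMIs) stayed unnamed under the depth rule for naming, although Ern2, Capn8, Fer1l6, Slc12a8 and Galnt6, the first 4 from the goblet marker list and the last from the O-glycosylation list, are among its leading genes. Muc2 stood at 1885 CPM (1769 to 2006) in C11 of control and 1701 CPM (1463 to 1967) in C11 of maternal obesity, 11.8 and 27.3 times the epithelial-like level. Fcgbp stood at 1471 and 2075 CPM, 9.43 and 17.8 times that level, and Agr2 at 3109 and 2318 CPM, 0.93 and 1.36 times. The Muc2 level divided by was 159 and 62.2 CPM, and Muc2 in C11 itself was not higher in maternal obesity. Most epithelial-like cells are not goblet-like. In goblet-like E14, Muc2 stood at 845 and 1086 CPM, Fcgbp at 622 and 920 CPM and Agr2 at 14374 and 21067 CPM. Against E14, C11 was thus higher in Muc2 and Fcgbp and lower in Agr2. Clca1 was at 4.80 and 7.78 times the epithelial-like level, Best2 at 3.01 and 5.12 times (116 and 7 UMIs), Spink1 at 1.44 and 7.11 times and Zg16 at 1.12 and 15.4 times (1 and 7 UMIs). In C11, 9.56% of all Muc2 UMIs of the control library and 5.53% of those of maternal obesity were found, in 60.4% and 62.7% of its barcodes. Among its leading genes is 7SK, a small nuclear RNA, at 2072 and 1318 CPM against 124 and 38.0 CPM in epithelial-like cells, and the median mitochondrial share was 6.86% and 2.41% against 2.44% and 2.67%. The part of nuclear or damaged material in these values was not tested. The other low-UMI cluster with epithelial markers, C9, held Muc2 at 15.5 and 10.5 CPM.

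Barcodes left out by the filter also held more Muc2 and Fcgbp than Agr2 relative to the epithelial-like level. Muc2 there stood at 18.2% and 24.8% of the epithelial-like level and Fcgbp at 21.8% and 21.7%, against 6.83% and 4.56% for Agr2 and 6.55% and 3.59% for Tff3. Of all Muc2 UMIs, epithelial-like cells held 82.7% in control and 75.3% in maternal obesity, against 91.8% and 88.8% of Agr2 UMIs.

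**Figure D5:**
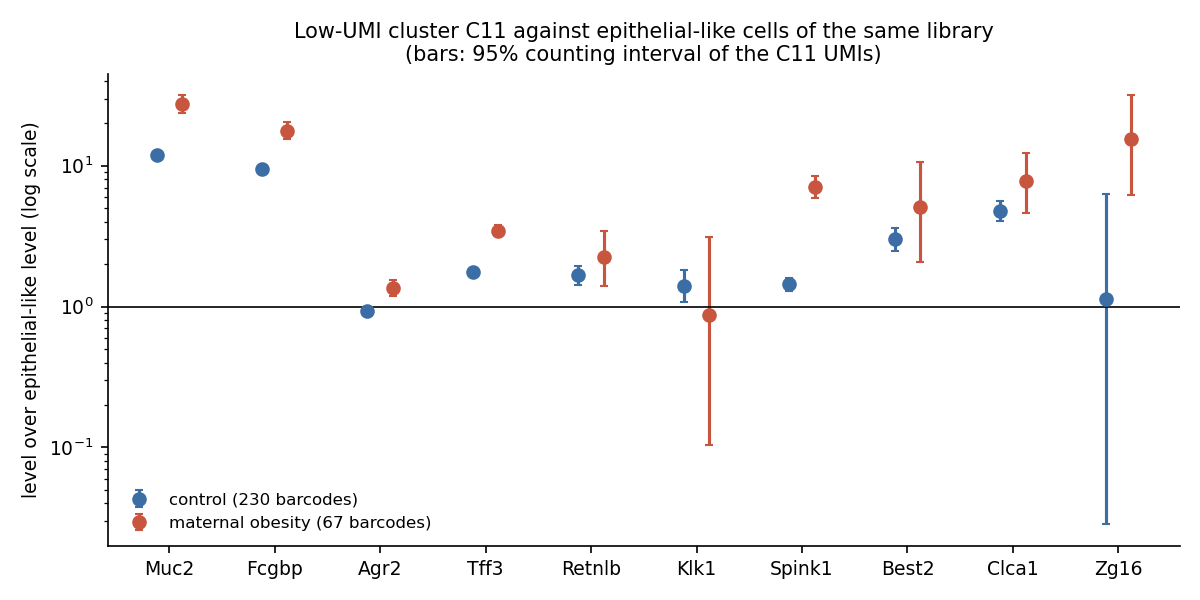
Level of each gene in the low-UMI cluster C11 divided by its level in epithelial-like cells of the same library, on a log axis, with 95% counting intervals of the C11 UMIs. Muc2 and Fcgbp lie far above 1 in both libraries and Agr2 lies near 1.

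The genes whose level over single epithelial-like cells was most like that of Muc2 in both libraries, out of 8899 searched, were Bace2 (r = 0.63 in control and 0.67 in maternal obesity), Ramp1 (0.62 and 0.65), Bcas1 (0.61 and 0.62), Atp2a3 (0.60 and 0.64) and Slc12a8 (0.60 and 0.69). For the sum of the 10 genes they were Gmds, which makes the donor for fucosylation (0.79 and 0.80), the goblet transcription factor Spdef (0.79 and 0.80), Creb3l1 (0.78 and 0.81), Fam3d (0.78 and 0.77) and the mucin glycosyltransferase Galnt12 (0.76 and 0.77).

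Of 14 regulators of goblet cells, 11 were at least 1.5-fold lower in maternal obesity over all epithelial-like cells and 0 higher, where 11.6% and 11.7% of all genes were. The median log2 ratio was -0.79 (0.05 over all genes). With equal weights, where 4.24% and 11.2% of all genes were past it, 0 of 14 were (median -0.21). Spdef was at 182 and 71.7 CPM (2.55-fold lower), Klf4 at 168 and 66.5 CPM, Creb3l4 at 79.3 and 31.3 CPM, Creb3l1, a secretory pathway factor, at 303 and 136 CPM, Foxa3 at 128 and 60.1 CPM and Foxa2 at 15.96 and 6.90 CPM. Smaller gaps were seen for Atoh1 (50.2 and 31.2 CPM), Hes6 (120 and 75.1 CPM), Xbp1 (219 and 145 CPM) and Gfi1 (4.08 and 2.18 CPM). Sox9, at 120 and 126 CPM, Elf3, at 381 and 316 CPM, and Foxa1, at 14.4 and 11.1 CPM, stayed within 1.5-fold.

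The same shares over all genes are the background of the next 3 lists. Of 27 mucin O-glycosylation genes in the files (28 listed), 16 were lower and 4 higher (median -0.70), and with equal weights 4 and 2 (median 0.07). B3gnt7, which extends glycan chains, was at 255 and 62.1 CPM (4.11-fold lower), Galnt12 at 217 and 95.1 CPM and Galnt7 at 125 and 88.4 CPM. Of 25 genes of mucus folding, storage and release, 17 were lower and 1 higher (median -0.77), and with equal weights 2 and 3 (median -0.28). Of its most counted genes, Txndc5 was 1.56-fold lower (326 and 210 CPM), while Ssr4 (519 and 460 CPM) and Pdia4 (250 and 206 CPM) stayed within 1.5-fold. Of 11 other mucins and relatives with at least 20 UMIs (26 listed), 7 were lower and 1 higher (median -1.24), and with equal weights 3 and 2 (median -0.07). Membrane mucin Muc13 was at 343 and 288 CPM, Muc1 at 49.1 and 22.4 CPM and Muc4 at 13.7 and 5.77 CPM.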

How the data were processed

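The authors deposited raw UMI counts without normalisation, for barcodes already called as cells. Cell Ranger 2.1.1 stands in the submitters' processing notes, but cellranger 6.1.2 per the file headers, so the version used is not settled. The genome build was not given in the sources used here. Other columns deposited by the authors hold gene identifiers, symbols and barcodes.

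Counts were added up per symbol. Scrublet in scanpy 1.11.5, at an expected 0.8% per 1000 barcodes, called 60 (0.872%) and 134 (1.85%) doublets against expected shares of 7.12% and 7.77%, which were removed, so many doublets probably stayed. Clusters (33) and epithelial-like sub-clusters (18) were made from 1990 variable genes without the 10 members, 30 components, 15 neighbours and Leiden resolution 1. C9 and C11 got no name because in each library 3 times their median UMI count was below that of all its cells and none of their 10 leading genes was an epithelial marker. C13 (medians of 1603 and 1590 UMIs), with no erythroid marker among its leading genes, also stayed unnamed. Any other cluster took its name from a marker list with more than 1 gene among its 10 leading genes. Failing that, a list needed a mean log2 level of at least 0.5 and a lead of 0.5 over the next list. In either case at least 3 markers had to be higher. A sub-cluster took a name where at least 3 list genes were among 50 leading genes. These thresholds were loosened after the clusters had been seen, so names and shares rest on rebuilt labels. Sub-clusters led by other cell types' genes (E10, E11, E17) were set aside. The class kept E13 (low UMIs) and E15 (haemoglobin-led); without them the count was again 8 lower and 1 higher.

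CPM is the UMI sum over the class total. Ratios carry exact conditional binomial, shares Clopper-Pearson and counts Poisson 95% intervals. PCR and capture errors are not covered. A count of 0 allows up to 3 counts. For the pooled comparison, counts of genes with at least 100 UMIs were simulated as Poisson draws from 1 profile shared by the libraries. There 99% of 2-fold changes and 0.142% of unchanged genes (of 11240) passed 1.5-fold. Uneven counts among cells, differences in cell make-up and genes with fewer UMIs were not simulated, so these shares cover counting error only. log2 ratios add 0.5 UMIs. Pathway genes named are the 3 most counted of each list and regulators with at least 100 UMIs, and the most alike genes had at least 200 UMIs in each library and the highest lower correlation. The members, gene lists and tests were chosen with earlier results of these data known. 11 alternatives were tried.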

Additional observations from a re-analysis of the deposited data

How the results depend on the processing

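The counts of 8 genes lower and 1 higher were the same under 9 of the 11 alternatives, namely stricter mitochondrial or gene filters, doublets kept, members allowed among the variable genes, an epithelial marker gate, haemoglobin and mitochondrial UMIs left out, the fibroblast-like level subtracted, top cells left out, and E13 and E15 left out. They became 3 and 0 with sub-clusters weighted equally, and 0 and 2 with the control make-up of sub-clusters. With that make-up the log2 ratio changed sign for Muc2 (0.48), Fcgbp (0.16), Agr2 (0.41), Retnlb (0.96), Klk1 (0.0102) and Spink1 (0.23). The Muc2 value leans in part on 1 maternal obesity cell, which held 165 of the 182 Muc2 UMIs of E3 there. The Retnlb value leans in part on 1 maternal obesity cell with 725 of the 2512 Retnlb UMIs of E6. Both weightings change which cells count by construction, and what set the sub-cluster shares was not tested.

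The share of epithelial-like cells with at least 3 of the genes moved with depth, to 35.0% and 16.2% at 1500 UMIs and 49.3% and 23.6% at 6000 UMIs. The direction between libraries held at all 3 depths. The alternatives without E13 and E15 and with the control make-up, and the top-cell values within sub-clusters were added after seeing the data. No paired analysis was possible because the groups share no replicate number and each holds 1 library. Leaving out a replicate would leave a group empty. Sub-clusters with under 30 maternal obesity cells limit what E6, E14 and E3 can show.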
